A study of Solenopsis invicta with 12 samples.

Results

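The 100 most abundant official transcripts of fire ant worker antennae are described here. They are the 100 gene identifiers starting with SINVm1 that had the highest mean TPM over 12 libraries, out of 15589 official genes and 19230 genes in the deposited tables. TPM, as RSEM gives it, is a gene's count divided by its effective length and scaled to the same total in every library. The mean TPM chose the members, so their high level is not a finding. The members nearest the threshold were SINVm1_gene_03369 at a mean of 745.6 TPM and SINVm1_gene_00300 at 744.9 TPM. The next genes, which are no members, were SINVm1_gene_01718 at 741.7 TPM and SINVm1_gene_09463 at 740.7 TPM. A further 10 genes with an XLOC identifier, which come from transcripts assembled by the authors, also lay above the level of rank 100 and are left out by the rule.

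Antennal RNA of medium-sized foraging workers of *Solenopsis invicta* was sequenced in 4 libraries for each of 3 worker classes. M_BB workers came from monogyne colonies, which have a single queen, and carry the SB form of the social supergene on both chromosomes (SB/SB). P_BB workers are SB/SB and P_Bb workers are SB/Sb, and both came from polygyne colonies, which have many queens. Each library pooled the antennae of many workers of 1 genotype and 1 colony, its RNA was amplified before sequencing, and the bioreplicates are numbered 2, 3, 6 and 7. P_BB and P_Bb workers of a number were nestmates from 1 colony (Rui9, Gui3, Bang3 and Bo5 for numbers 2, 3, 6 and 7), while the M_BB workers came from separate monogyne colonies (Rui7, Zhuang3, Tan1 and Rui1, in the same order). The 8 polygyne libraries therefore rest on 4 colonies.

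Antennae are the main organs of smell and taste in ants. An insect antenna holds sensory neurons, their support cells, cuticle, muscle in the basal segments, nerve and blood cells, and support cells are known to secrete large amounts of small odorant-binding and chemosensory proteins into the fluid around the sensory neurons. The SB and Sb forms of the supergene are inherited as blocks, and workers carrying Sb accept several queens in their colony. The deposited tables do not pair SINVm1 identifiers with gene names or sequences, and the RefSeq gene table used here holds none of them, so no member is given a name, a role or a sequence. For the same reason the tissue label was not checked against antennal markers, and lists such as ribosomal proteins or odorant-binding proteins were not counted among the members.

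The members were shorter than official genes as a whole, and length enters the TPM that chose them. Their median length was 621 bases (from 180 to 6450), against 828 bases for all official genes. Of the members, 41 were under 500 bases long, a class that holds 30.2% of official genes, and 7 were over 2000 bases, a class that holds 18.7%. Only 26 of the 100 were also among the 100 official genes with the largest shares of the read counts, and 83 stayed when counts were divided by the full length of the gene in place of the shorter effective length that the authors' software uses. By median TPM, 96 of the members would have been chosen, and leaving out each library in turn kept 97 to 99 of them. All 100 had counts in every library, and 37 were among the 100 most abundant official genes of every library taken on its own. The lowest expected count of a member in a library was 4 (SINVm1_gene_09950), and 16 members had a library under 100 counts. The uncertainty of assigning reads among genes, given in the tables as a posterior SD, reached 6.71% of the count in SINVm1_gene_10902 and at most 1.93% in the other 99.

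Together the members held 20.7% to 34.2% of a library's TPM, with a mean of 25.6%, but 7.26% to 10.4% of its counts. In M_BB the share of TPM was 32.9%, 25.7%, 25.4% and 34.2% in libraries 2, 3, 6 and 7. In P_BB it was 22.8%, 24.6%, 23.7% and 25.6%, and in P_Bb it was 25.3%, 20.7%, 23.1% and 23.5%, in the same order. M_BB libraries 2 and 7 stood above the other 10, while the lowest M_BB library (6) lay below the highest P_BB library (7), so the classes overlapped. The class means were 29.5% ± 4.63 in M_BB, 24.2% ± 1.20 in P_BB and 23.1% ± 1.87 in P_Bb (SD, n = 4 each). On counts the order was the same, with 9.05% ± 0.913, 8.37% ± 0.504 and 8.14% ± 0.833 (SD, n = 4 each), and these ranges overlapped as well. No test was made of these shares, because the members were chosen by TPM.

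**Figure D1:**
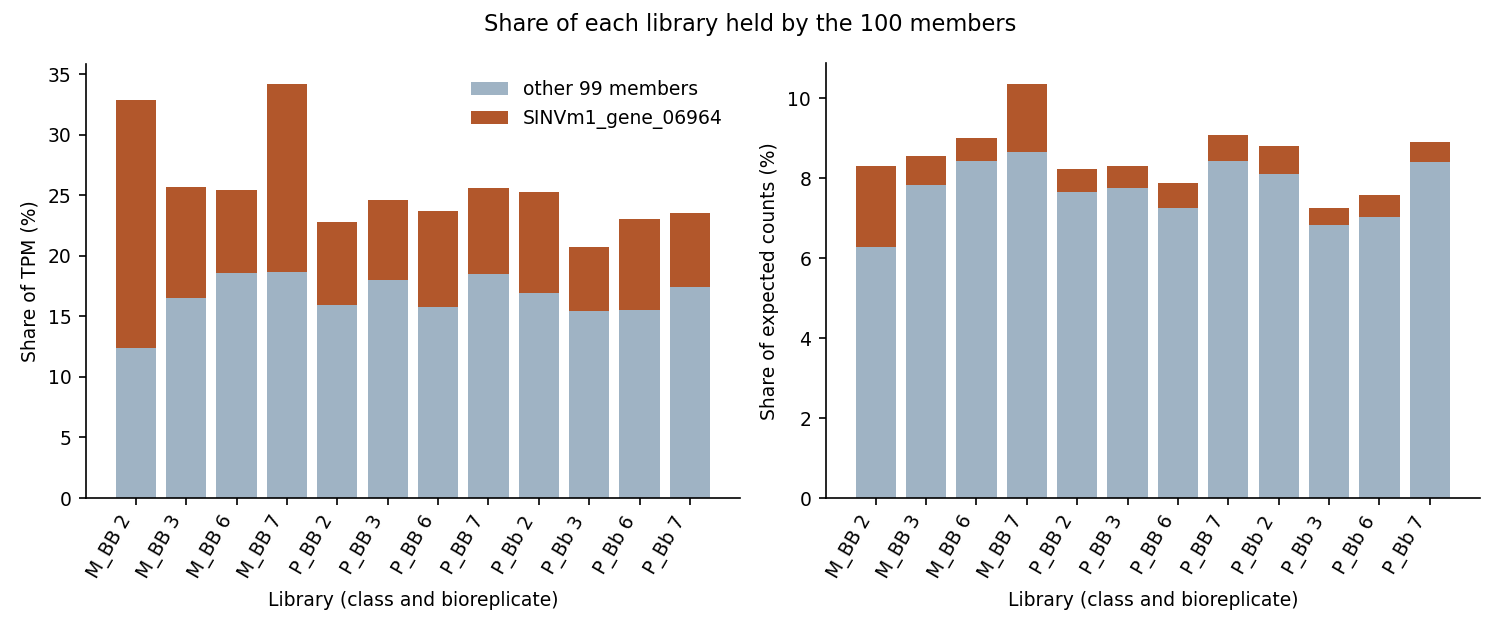
Share of each library held by the 100 members, in percent of TPM (left) and percent of expected counts (right), with SINVm1_gene_06964 stacked on the other 99. Each bar is 1 library. In M_BB libraries 2 and 7 the total share of TPM reaches 32.9% and 34.2%, while the other 99 members hold 12.4% to 18.6% in the 12 libraries.

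A single short gene took much of that share. SINVm1_gene_06964, 345 bases long, had a mean of 89829 TPM, which was 12.0 times the mean of the second member, SINVm1_gene_04498 (7459 TPM), and 35.1% of the mean TPM of all members. The 10 highest members together held 52.3%. In M_BB its TPM was 204605, 91922, 68276 and 155481 in libraries 2, 3, 6 and 7. In P_BB it was 68374, 65852, 79547 and 71005, and in P_Bb 83675, 52695, 75593 and 60921. M_BB libraries 2 and 7 were far above every other library, M_BB library 3 was just above the polygyne libraries, and M_BB library 6 lay among them. It was the most abundant gene of all 19230 in 10 of the 12 libraries. In P_BB library 2 and P_Bb library 3 that place went to XLOC_043984, with 79197 and 70979 TPM.

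Its counts moved the same way as its TPM. SINVm1_gene_06964 took 2.03%, 0.735%, 0.579% and 1.68% of the counts of M_BB libraries 2, 3, 6 and 7, and 0.427% to 0.689% in the 8 polygyne libraries. The deposited effective length of this gene was 139 and 147 bases in M_BB libraries 2 and 7 and 121 to 136 bases in the other 10. The mean fragment length implied by the effective lengths was 209 and 201 bases there and 213 to 232 bases in the others. By the fragment sizes given with the samples, however, M_BB library 2 was the longest of the 12 and M_BB library 7 the shortest. The part of fragment length in the result was not tested. By the names of the libraries, the M_BB libraries 2 and 7 share the prefix LGC16 with P_BB and P_Bb library 7. Within that prefix the members' share of TPM was 32.9% and 34.2% in M_BB against 23.5% and 25.6% in the polygyne libraries, and within the prefix LGC it was 25.4% and 25.7% in M_BB against 20.7% to 25.3%.

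The differences in the share among libraries followed this gene. The covariance of each member's TPM with the members' summed TPM, as percent of the variance of the sum, adds up to 100% over the members, and members that run against the sum count as negative. SINVm1_gene_06964 had 103% of it, and 51 members were negative. Next came SINVm1_gene_00283 with 3.90%, SINVm1_gene_01193 with 3.65%, SINVm1_gene_12835 with 3.32% and SINVm1_gene_07111 with 1.99%. The lowest were SINVm1_gene_11163 with -4.00% and SINVm1_gene_04498 with -3.43%. The other 99 members held 16.5% ± 2.92 of TPM in M_BB, 17.0% ± 1.40 in P_BB and 16.3% ± 0.997 in P_Bb (SD, n = 4 each). Without the first gene, the M_BB mean thus lay between those of P_BB and P_Bb. These shares keep SINVm1_gene_06964 in the total, where it took 20.5% and 15.5% of TPM in M_BB libraries 2 and 7. A high value of that gene by itself lowers the share of the other 99. Without M_BB libraries 2 and 7, the contribution of SINVm1_gene_06964 was 46.5%. On shares of counts it was 26.8%, followed by SINVm1_gene_07111 and SINVm1_gene_13396 with 11.5% each and SINVm1_gene_03973 with 11.2%.

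The smaller contributors peaked in 1 or other of the same pair of M_BB libraries. SINVm1_gene_00283 was at 10056 TPM in M_BB library 2 and at 778 to 2580 TPM in the other 11. SINVm1_gene_01193 was at 7293 and 4020 TPM in M_BB libraries 2 and 7 and at 652 to 2347 TPM in the others. SINVm1_gene_12835 was at 9294 TPM in M_BB library 7 but at 1158 TPM in M_BB library 2. Both of the lowest contributors were low in these libraries. SINVm1_gene_11163 had 451 and 1687 TPM there and 3823 to 7097 TPM elsewhere, and SINVm1_gene_04498 had 2560 and 5381 TPM there and 6481 to 9042 TPM elsewhere. M_BB libraries 2 and 7 did not move together in every member, since SINVm1_gene_07111 was at 1930 TPM in one and at 5782 TPM in the other.

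The other 7 of the 10 most abundant members ranged from very even to uneven. SINVm1_gene_13396, 3981 bases long, varied least of all members, with 4979 to 6919 TPM over the 12 libraries and a coefficient of variation (CV, the SD as percent of the mean) of 9.61%. It alone took 1.48% of the mean counts, more than SINVm1_gene_06964 (0.801%). SINVm1_gene_09870 had 2801 TPM in M_BB library 2, 4301 in M_BB library 7 and 5025 to 7296 TPM elsewhere. SINVm1_gene_10847 was also lowest in M_BB libraries 7 and 2, at 1497 and 1597 TPM against 3252 to 4925 TPM. For these genes the low values were again those of the pair of libraries in which SINVm1_gene_06964 was high. SINVm1_gene_03973 had 1289 TPM in M_BB library 2 and 3317 to 6021 TPM in the others, and SINVm1_gene_03480 had 1086 TPM there and 2927 to 6745 TPM in the others. SINVm1_gene_06799 ranged from 2477 to 6560 TPM and SINVm1_gene_11809 from 1073 to 5726 TPM, each highest in M_BB library 7. Both SINVm1_gene_03387 (CV 13.8%) and SINVm1_gene_11962 (CV 14.2%) were nearly as even as SINVm1_gene_13396 at a lower level, with 752 to 1221 TPM and 862 to 1518 TPM.

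**Figure D2:**
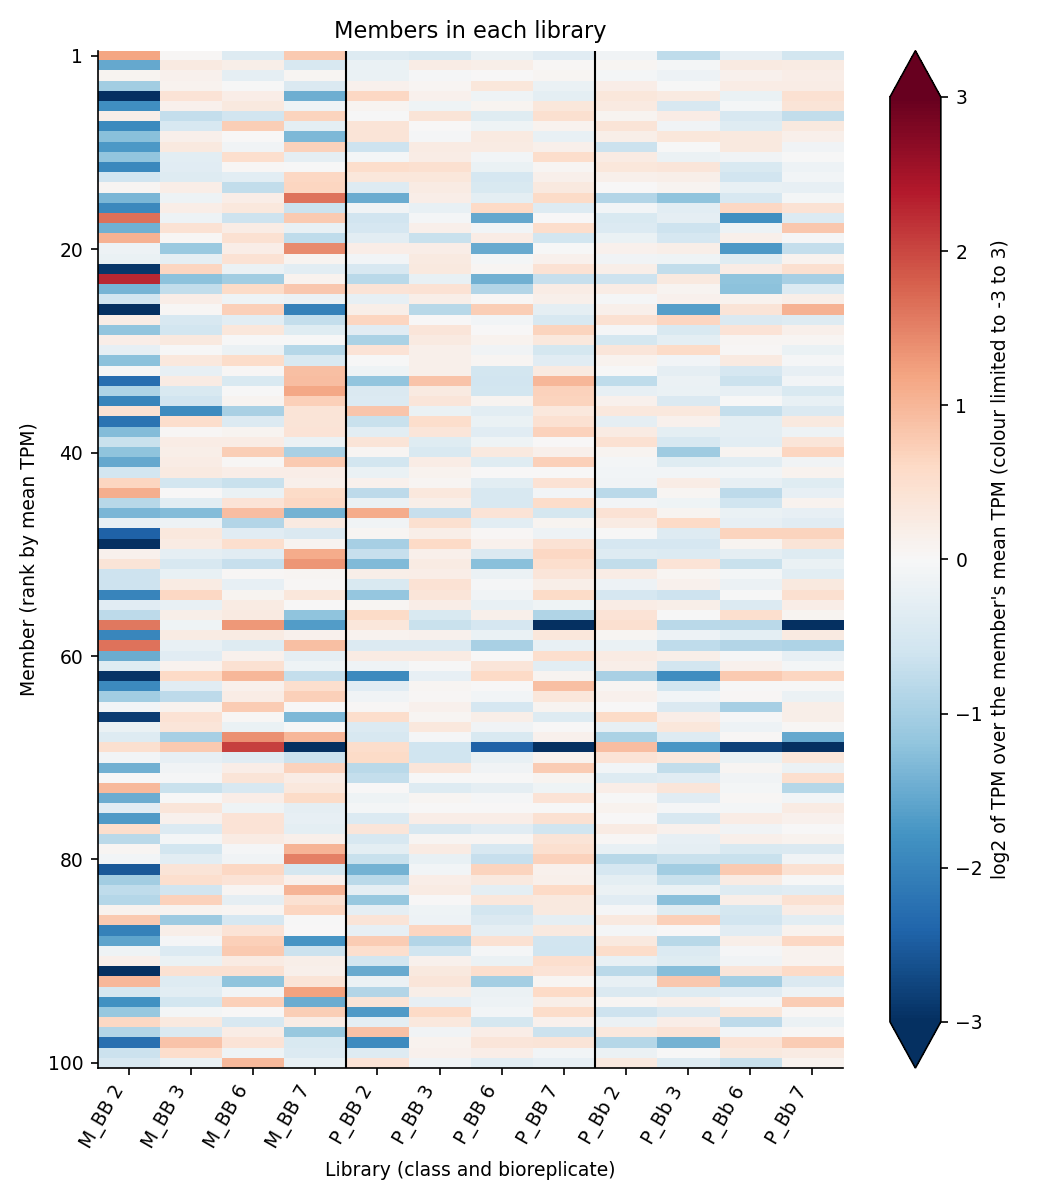
TPM of each of the 100 members (rows, by rank of mean TPM) in each of the 12 libraries (columns), as log2 of TPM over the mean of that member. Red is above and blue below the member's own mean, black lines separate the classes. M_BB library 2 holds the lowest value of 50 members and M_BB library 7 the highest of 22, counts that were not made over all genes tested.

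Over all members the median CV was 36.3% (from 9.61% to 122%), beside 31.9% over the 10503 genes that had enough counts to be tested. The highest value exceeded the lowest by a median of 3.85-fold, by over 10-fold in 12 members and by under 2-fold in 7. M_BB was the most variable class. Within classes the median CV was 49.1% in M_BB, 29.1% in P_BB and 22.8% in P_Bb (n = 4 libraries each), beside 35.7%, 28.4% and 25.5% over all genes tested, and 81 members had their highest CV in M_BB. Library 2 or 7 of M_BB held the highest or the lowest value of 85 members. Neither this count nor that of 81 was made over all genes tested. Pairs of M_BB libraries differed by a median of 0.85 on the log2(TPM + 1) scale over the members and 0.53 over all genes tested. Between polygyne libraries of different colonies these medians were 0.42 and 0.38. Without M_BB libraries 2 and 7 the median CV over the other 10 was 26.6%, beside 27.7% over all genes tested.

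Those libraries differed from the other 10 in opposite ways for short members. Relative to the mean log2(TPM + 1) of the other 10 libraries, M_BB library 2 had a median difference of -0.98 over the 41 members under 500 bases, of which 13 were higher. M_BB library 7 had a median difference of 0.68 over the same members, of which 30 were higher. Over the 52 members of 500 to 2000 bases the medians were -0.70 and -0.01. Of the 7 members over 2000 bases, 1 was higher in each library, with medians of -0.38 and -0.32. M_BB library 7 also had the fewest counts of all, 1662249 against 2373104 to 4101327 in the others, and the part of depth or length in these differences was not tested.

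Variation was then divided between worker class, bioreplicate number and the rest. For the median member, class held 12.2% of the sum of squares of log2(TPM + 1), bioreplicate 41.5% and the rest 43.4%, beside 11.7%, 39.2% and 43.0% over all genes tested. In 37 members bioreplicate held over 50%, and in 0 did class, but these counts were not made over all genes tested. Among the 8 polygyne libraries, colony held a median of 69.0% and genotype 5.19%, beside 65.1% and 3.69% over all genes tested. A term with more levels takes more of the sum of squares even where nothing differs. There were 4 bioreplicates against 3 classes, and 4 colonies against the pair of P_BB and P_Bb, so these parts are not on an equal footing. In bulk tissue, fewer cells of a type and less RNA per cell cannot be told apart in any of these values.

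Whether abundant transcripts differ between worker classes was tested with edgeR's quasi-likelihood test on all 10503 genes, with Benjamini-Hochberg adjustment over all of them. A gene with an adjusted p under 0.05 is said to pass. The model of the class comparisons had no term for colony or bioreplicate number, so nestmate libraries counted as independent. Among the 3 classes 0 members passed, against 0.219% of all genes tested (23 genes), and 6 had an unadjusted p under 0.05 against 4.09% of all genes. By supergene genotype (P_Bb against the mean of both SB/SB classes) 0 members passed against 0.229% of all genes, with 0 unadjusted against 2.29%. By social form (M_BB against the mean of both polygyne classes) 0 passed against 0.0476%, with 12 unadjusted against 8.67%. Between nestmates (P_Bb against P_BB) 0 passed against 0.133%, with 0 unadjusted against 1.01%. Between SB/SB workers of the 2 social forms 0 passed against 0% of all genes, with 7 unadjusted against 4.81%. DESeq2 and limma also passed 0 members in each of these 5 comparisons, which share libraries with each other.

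In absolute terms, members differed by a median log2 fold change of 0.22 by genotype and 0.28 by social form, beside 0.16 and 0.24 over all genes tested. By genotype 33 members were higher in P_Bb and 67 lower, beside 49.1% of all genes higher, and the median log2 fold change was -0.13 beside -0.01 over all genes tested. Between nestmates 31 were higher in P_Bb and 69 lower, beside 51.8% of all genes higher, with a median of -0.13 beside 0.01. By social form 54 were higher in M_BB and 46 lower, beside 52.2% higher, with a median of 0.07 beside 0.02. Between SB/SB workers 52 were higher in P_BB and 48 lower, beside 47.5% higher. A fold change over 2 was fitted for 10 members by social form against 3.01% of all genes, and for 6 between SB/SB workers against 2.97%. By genotype it was 1 against 1.11%, and between nestmates 0 against 0.724%. All 10 by social form were higher in M_BB, since the lowest log2 fold change of a member was -0.73. The mean TPM that chose the members includes M_BB and favours genes high there, so the 10 are no measured excess over 3.01%. SINVm1_gene_13864 and SINVm1_gene_08533 had polygyne means of 583 and 717 TPM, below the 744.9 TPM of rank 100. There was no member whose TPM in M_BB lay wholly above or below the 8 polygyne libraries (0 members, against 0.686% of all genes). The same held for P_Bb against the other 8 libraries, with 0 members against 0.419%, for P_Bb against P_BB, with 0 against 1.31%, and for P_BB against M_BB, with 0 against 1.77%.

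The members with the smallest p by social form were SINVm1_gene_11838 and SINVm1_gene_06964. SINVm1_gene_11838, 306 bases long, had 3483, 966, 855 and 2082 TPM in M_BB libraries 2, 3, 6 and 7. It had 841, 850, 572 and 967 TPM in P_BB and 980, 665, 610 and 592 TPM in P_Bb. Its values were again far above the rest in M_BB libraries 2 and 7 only, and its log2 fold change by social form was 1.56 ± 0.43 (SE) with an edgeR adjusted p of 0.445. For SINVm1_gene_06964 this fold change was 1.15 ± 0.31 (SE) with an edgeR adjusted p of 0.445, and that of P_BB against M_BB was -1.08 ± 0.38 (SE) with an edgeR adjusted p of 0.888. Without M_BB libraries 2 and 7 the log2 fold changes by social form were 0.07 for SINVm1_gene_11838 and 0.03 for SINVm1_gene_06964. With the bioreplicate number as a block they were 1.28 ± 0.30 (SE, edgeR adjusted p 0.270) and 0.97 ± 0.26 (SE, edgeR adjusted p 0.376), in the same order. By genotype the smallest p was that of SINVm1_gene_08533 (log2 fold change -0.93 ± 0.44 (SE), edgeR adjusted p 0.999), which was at 2530 TPM in M_BB library 7, at 1435 TPM in P_BB library 7 and at 496 to 837 TPM elsewhere. Between nestmates it was that of SINVm1_gene_12753 (-0.72 ± 0.56 (SE), edgeR adjusted p 0.99997), which was higher in P_BB than in P_Bb in 3 of 4 colonies.

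Over the members, nestmate libraries were closest in colonies 2 and 6, an order that all genes tested did not share. Between the P_BB and P_Bb libraries of a colony, the median absolute difference was taken on the log2(TPM + 1) scale. Over the members it was 0.20, 0.40, 0.12 and 0.41 in colonies 2, 3, 6 and 7. Over all genes tested it was 0.32, 0.37, 0.19 and 0.30, in the same order. Of the 100 members 2, 11, 0 and 6 differed by over 2-fold between nestmates, and 84 stayed within 2-fold in all 4 colonies. These counts were not made over all genes tested. Polygyne libraries of different colonies differed by a median of 0.42 over 24 pairs of libraries (from 0.26 to 0.64). By this measure the nestmates of colonies 3 and 7 were no closer than many pairs from different colonies. By correlation of log2 TPM across the 100 members, the nestmates of colony 6 (Bang3) were the closest pair, with 0.98. Those of colony 3 (Gui3) were the least alike nestmates, with 0.89. All nestmate pairs had higher correlations than the 24 pairs from different colonies, which ranged from 0.51 to 0.88. The direction between nestmates was not shared by the colonies. In colonies 2, 3, 6 and 7, 70, 23, 45 and 45 of the members were higher in P_Bb than in P_BB, beside 61.3%, 39.8%, 53.9% and 63.6% of all genes tested.

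Differences between the 4 polygyne colonies were tested with edgeR in the 8 polygyne libraries, with genotype in the model. Here 15 members passed, 15% of them, against 1.88% of all genes tested, and 61 had an unadjusted p under 0.05 against 24.9% of all genes. The share that passed was 10% among official genes of rank 101 to 200, 4.05% of ranks 201 to 500, 3.64% of ranks 501 to 1000, 3.25% of ranks 1001 to 2000 and 1.36% of ranks 2001 to 5000. It fell with rank, and the part of depth in that order was not tested. The ratio of the highest to the lowest colony mean ranged from 1.55 to 287 among the 15, with a median of 2.03 beside 1.67 over all members. The highest colony was 2 (Rui9) for 9 of the 15, 3 (Gui3) for 5 and 7 (Bo5) for 1, and the lowest was 6 (Bang3) for 10. Each polygyne colony is also a bioreplicate number, which by the study's methods had its own collection and sampling. Colony and anything else the libraries of a number shared cannot be told apart in these calls. The count of 15 rests on few libraries. It was 2 without either library of colony 6 and 4 without either library of colony 7, but 59 and 54 without the P_BB or P_Bb library of colony 3, 39 without P_Bb library 2 and 17 without P_BB library 2.

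**Figure D3:**
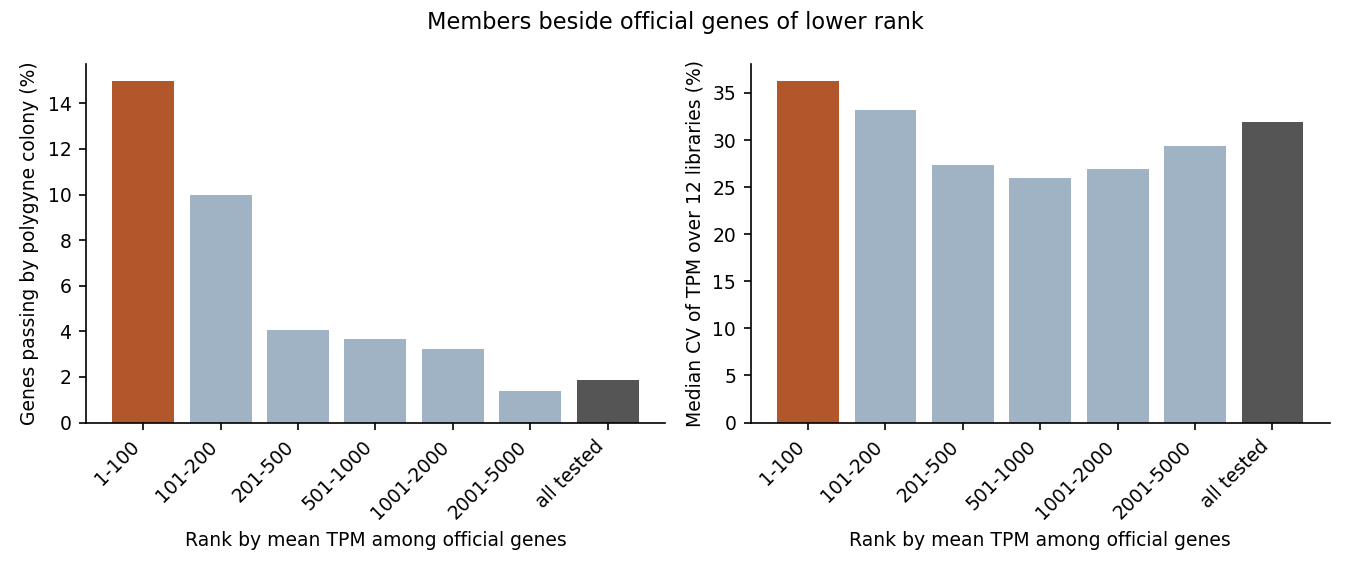
Official genes by rank of mean TPM, with the share that passed the edgeR test between polygyne colonies (left, percent of genes tested) and the median CV of TPM over the 12 libraries (right, percent). The members, ranks 1 to 100, are in brown and all 10503 genes tested in dark grey. The share that passed is 15% among the members and 1.88% among all genes, and the median CV is 36.3% and 31.9%.

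SINVm1_gene_13864 and SINVm1_gene_05940 passed between colonies in every alternative run and without each library in turn. SINVm1_gene_13864, 801 bases long, had 1448 and 1911 TPM in the P_BB and P_Bb nestmates of colony 2. It had 663 and 300 TPM in colony 3, 187 and 144 TPM in colony 6, and 4.98 and 6.72 TPM in colony 7. The 4 colonies did not overlap, and their means spanned 287-fold (edgeR adjusted p 2.1e-05). The mean of this gene over the polygyne libraries was 583 TPM, below the 744.9 TPM of rank 100. It became a member through the libraries where it was high, so its spread is not independent of the choice. The lowest library of this gene held 5 counts. Among the M_BB libraries it had 1402, 1732, 4205 and 113 TPM, so bioreplicate 7 was the lowest in all 3 classes, whereas the 4205 TPM of M_BB library 6 was above every polygyne library. The CV over the 12 libraries was 122%.

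SINVm1_gene_05940, 621 bases long, had 1428, 720, 798 and 112 TPM in P_BB libraries 2, 3, 6 and 7. In P_Bb it had 1586, 644, 650 and 141 TPM, and in M_BB 3386, 1032, 2788 and 354 TPM. Number 2 was the highest and number 7 the lowest in all 3 classes, nestmates were close to each other, and the means of the polygyne colonies spanned 11.9-fold (edgeR adjusted p 5.8e-05). It was the 1 member that passed between bioreplicate numbers over all 12 libraries (edgeR adjusted p 0.00419), against 0.00952% of all genes tested, which is this gene alone, while 35 members had an unadjusted p under 0.05 against 15.4% of all genes. That call was lost without any 1 of the 3 libraries of bioreplicate 7, with adjusted p from 0.0593 to 0.0725.

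Within each bioreplicate number the M_BB value of SINVm1_gene_05940 lay above both polygyne values. It was 2.25, 1.51, 3.85 and 2.80 times the mean of the nestmates in numbers 2, 3, 6 and 7. With the bioreplicate number as a block it was the 1 member that passed among the 3 classes (edgeR adjusted p 0.0377, against 0.9997 without the block), where 0.181% of all genes passed. Between nestmates the block passed 0 members against 0.105% of all genes, by genotype 0 against 0.209%, and by social form and between SB/SB workers 0 against 0%. Its log2 fold change by social form was then 1.43 ± 0.21 (SE) with an edgeR adjusted p of 0.0524, which did not pass, and that between nestmates was -0.04 ± 0.25 (SE). M_BB was above both polygyne libraries in all 4 numbers for 3 members against 1.51% of all genes tested, and below both for 1 member against 3.89%. The other 2 were SINVm1_gene_11838 and SINVm1_gene_06801, and the 1 below was SINVm1_gene_11350. SINVm1_gene_06801 and SINVm1_gene_11350 were singled out after their values were seen.

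**Figure D4:**
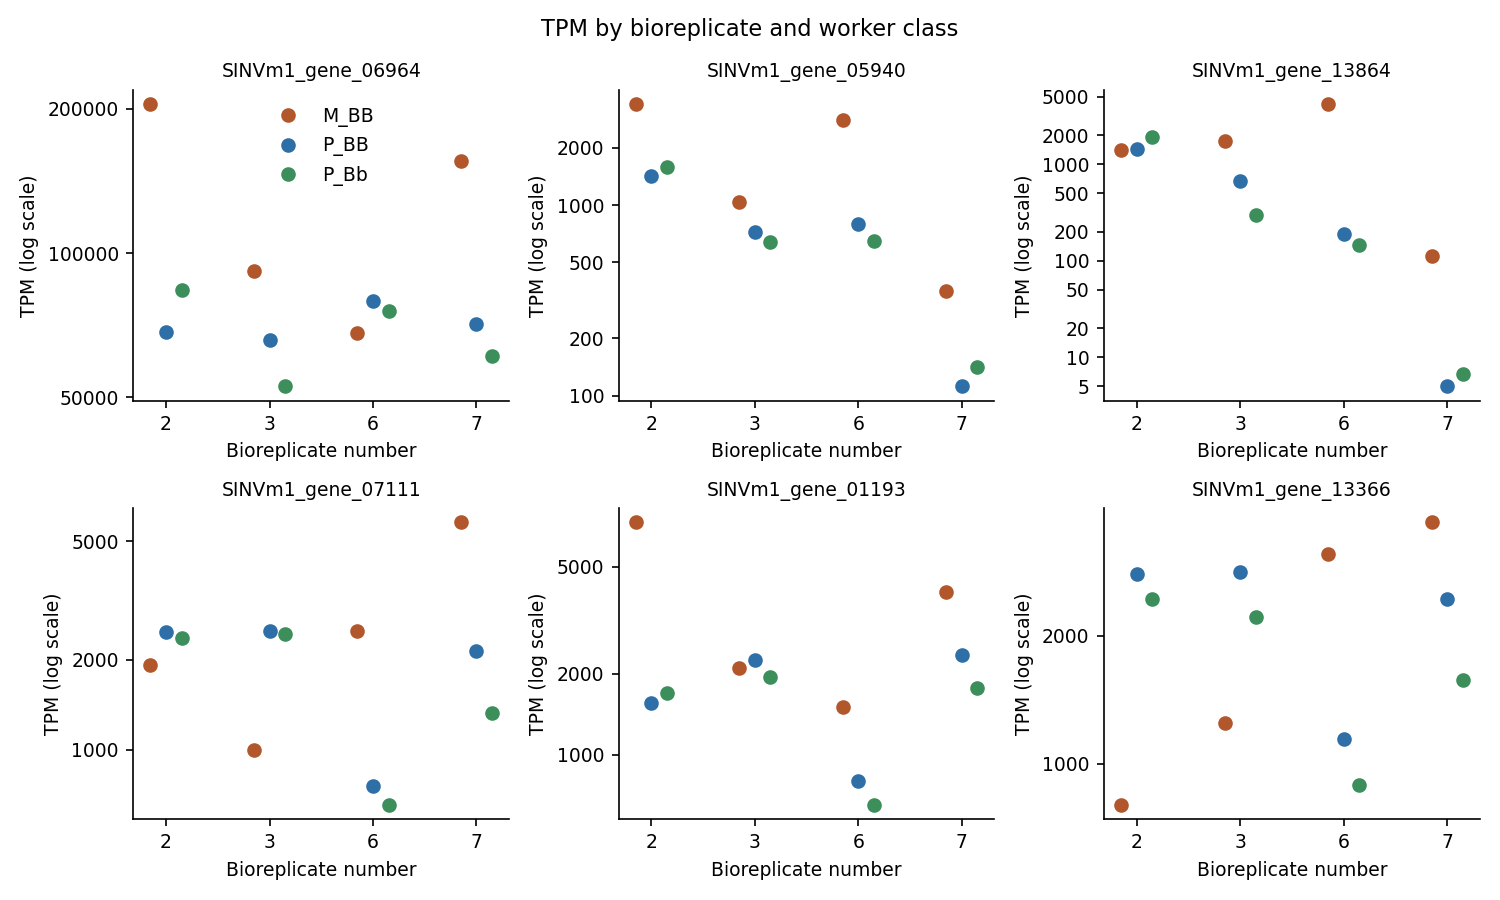
TPM of 6 members on a log scale by bioreplicate number, with 1 point per library coloured by worker class. P_BB and P_Bb of a number are nestmates. SINVm1_gene_13864 falls to 4.98 and 6.72 TPM in the nestmates of number 7, and M_BB lies above both nestmates in all 4 numbers for SINVm1_gene_05940.

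Among the next members to pass between colonies, colony 6 was the low one. SINVm1_gene_07111, 1467 bases long, had 757 and 654 TPM in the P_BB and P_Bb nestmates of colony 6, and 1324 to 2496 TPM in the other 3 colonies (edgeR adjusted p 0.0031). SINVm1_gene_13366 had 1144 and 895 TPM in colony 6 and 1576 to 2817 TPM in the others (edgeR adjusted p 0.0048). SINVm1_gene_01193, one of the contributors to the share above, had 802 and 652 TPM in colony 6 and 1554 to 2347 TPM in the others (edgeR adjusted p 0.0088). In none of these genes did colony 6 overlap with the other colonies. These 3 calls were lost with limma and without either library of colony 6, with adjusted p from 0.154 to 0.254 for SINVm1_gene_07111 and SINVm1_gene_13366. The M_BB library of number 6 was not low for SINVm1_gene_07111 (2493 TPM) or SINVm1_gene_13366 (3100 TPM), whereas for SINVm1_gene_01193 its 1509 TPM was the lowest M_BB value. Of the genes that lead the list by level, SINVm1_gene_03480 passed between colonies (edgeR adjusted p 0.0410), with 5331 and 5282 TPM in colony 2 and 3714 and 3149 TPM in colony 6, whereas SINVm1_gene_06964 did not (edgeR adjusted p 0.200). The call of SINVm1_gene_03480 was lost with limma (adjusted p 0.273 and 0.276 at the pseudocounts of 1 and 0.1) and without P_BB library 2 or any 1 library of colonies 6 and 7, with edgeR adjusted p from 0.0889 to 0.422.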

How the data were processed

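Antennal RNA of 12 libraries was used, 4 for each of M_BB, P_BB and P_Bb, and class, colony and number were taken from the sample labels. The authors trimmed and mapped the reads with Bowtie onto 19230 genes, and deposited for every gene the RSEM expected count, the TPM, the effective length and a posterior SD of the count, each library on its own. Lengths and posterior SDs are other values that were used as deposited. Only genes with SINVm1 identifiers were ranked. Expected counts were rounded and tested with edgeR (4.0.16, R 4.3.3), with robust quasi-likelihood tests after TMM scaling and filterByExpr, and without a block, since the study's model had no bioreplicate term. Log2 levels used a pseudocount of 1. The members and lists were chosen with earlier results of these data known.

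Named genes were the 10 most abundant, the 5 largest and 2 lowest contributors to the variance of the sum, up to 4 with the smallest p that passed per test (or 1 where none passed), the 3 highest and 3 lowest CVs, and those at the threshold. The most abundant gene of any library was named as well. Alternatives were other scalings, no filter, DESeq2 (1.42.0), limma (3.58.1), the library name prefix, the block and leaving out each library. The script was tested on simulated data. Python (3.11.15) was used for all descriptions.

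Same-numbered libraries are paired by origin: by the labels both polygyne libraries come from 1 colony, and by the study's methods the monogyne colony was collected and sampled alongside it. The class comparisons did not use this pairing, except where the block is named. Deviations of nestmates from their class means had correlations across all genes tested of 0.0839 to 0.632, and the median over the 12 same-numbered pairs was 0.241, against -0.0813 for different numbers. Depth was 1662249 to 4101327 expected counts per library. Counts of 2 libraries of a class differed by a chi-square of at least 5.99 per degree of freedom, so none was a copy. The p-values of the class comparisons without a block rest on the spread between these pools within a class. In the tests by colony, by bioreplicate number and with the block, no 2 libraries shared both number and class. Those p-values rest on the spread left after both terms, which is not a spread between replicate pools of a colony.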

Additional observations from a re-analysis of the deposited data

Results flagged for a closer look

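In 8 of 78 groups of 4 libraries, 1 library lay far from the other 3 by Dixon's test at the 95% level. The groups were the TPM of the named members and the members' shares within each class. Chance alone sets apart about 1 in 20 independent groups of normally spread values. These groups share libraries, and many named members were chosen by their spread or p, so that rate is no measure for the 8 of 78. In M_BB library 2, SINVm1_gene_00283 was high at 10056 TPM (892 to 2255 in the other 3) and SINVm1_gene_11962 was low at 862 TPM (1449 to 1518). In M_BB library 7, SINVm1_gene_08533 was high at 2530 TPM (706 to 837), and in M_BB library 6, SINVm1_gene_00300 was high at 1471 TPM (535 to 645). In P_BB library 2, SINVm1_gene_11809 was low at 2329 TPM (3957 to 4253), and its nestmates in P_Bb library 2 had 2283 TPM. In P_Bb, SINVm1_gene_09870 was low at 5716 TPM in library 3 (6612 to 6755), SINVm1_gene_13864 was high at 1911 TPM in library 2 (6.72 to 300.1) and SINVm1_gene_11962 was high at 1356 TPM in library 7 (1189 to 1194).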

How the results depend on the processing

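The counts of 0 members by genotype, by social form, between nestmates and between SB/SB workers were 0 under each alternative that was run, and so was that among the 3 classes except with the replicate block, where 1 member passed (SINVm1_gene_05940). The block changed no other call. The 15 members that passed between polygyne colonies were 33 without a filter on low counts, 37 with DESeq2, 27 without the genotype term and 2 with limma at either pseudocount, and leaving out 1 library gave 2 to 59. The 1 member between bioreplicates became 2 without a filter, 19 with DESeq2, 12 with the library name prefix in the model, 0 without the class term and 0 without both M_BB libraries 2 and 7, and leaving out 1 library gave 0 to 12. The cause was not tested. The mean share of TPM was 17.6% when members were chosen by their share of counts, 31.98% of official genes only and 19.2% with full lengths, and 24.9% to 26.1% leaving out 1 library. The mean share of counts was 16.5% and 13.1% under the first 2 of these, and 8.21% to 8.59% leaving out 1 library. The contribution of SINVm1_gene_06964 to the variance of the sum was 26.8% on counts, 90.3% with full lengths and 46.5% without M_BB libraries 2 and 7, and 75.5% to 125% leaving out 1 library, lowest without M_BB library 2 and highest without M_BB library 7. The median CV was 28.9% to 37.8% leaving out 1 library. No member passed in a comparison that has a direction, so no sign could turn with a call. Signs did turn without one. Leaving out 1 library, the log2 fold change by social form ran from -0.34 to 0.44 for SINVm1_gene_11809. It ran from -0.16 to 0.44 for SINVm1_gene_06799 and from -0.05 to 0.21 for SINVm1_gene_13396. That of SINVm1_gene_06964 kept its sign, at 0.67 to 1.40. Full lengths and leaving out both libraries were chosen after seeing the data, and the prefix could not be fitted between colonies, since it marks colony Bo5 alone. Depth limits SINVm1_gene_13864, which rests on few counts in colony 7.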
